A study of Rattus norvegicus with 12 samples.

Results

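The 9 genes described here, known from mesothelium and epithelium, were followed in cultured rat aortic smooth muscle cells that had lost thrombospondin-1 (KO) and in cells that had not (WT). They are Anxa8, Upk1b, Upk3b, Krt8, Krt18, Krt19, Msln, Cdh1 and Wt1, which is 9 of the 22081 genes in the deposited table. The 9 were chosen by their measured levels in KO and WT cells. The difference between KO and WT is therefore given for them as a description, with its error and with no test, while the response to stretch was not used in the choice and is tested. All 9 were in the table, and 8 of them passed the filter on low counts that 14825 genes passed. Krt19 did not pass.

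The 4 groups, each of 3 libraries, were KO under stretch, KO static, WT under stretch and WT static. All cells were Wistar aortic smooth muscle cells bought as a primary culture, grown in 20% serum and used between passages 5 and 8, and all were starved of serum for 24 h. KO cells had received a plasmid for Cas9, GFP and a guide against the Tsp1 gene Thbs1, were sorted for GFP and were grown out from single cells, and the number of clones is not given. A difference between the genotypes cannot be told apart from one between clones. WT cells had the intact gene. Stretched plates were pulled along 1 axis by 20% at 1.0 Hz, that is 60 cycles per min, for a time that the labels do not give. The labels do not state whether the libraries of a group were separate cultures, so a p-value here covers the spread of these samples alone, which can be technical.

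Mesothelium is the flat cell layer that lines the body cavities and covers the organs, and it carries epithelial features such as keratin filaments and cell junctions on a cell of mesodermal origin. The epicardium is the mesothelium of the heart. During development some of its cells leave the layer and become smooth muscle cells of the coronary vessels and fibroblasts of the heart. Epithelial cells adhere through E-cadherin and desmosomes, and their keratin filaments are built from pairs of a type I and a type II keratin.

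Libraries held 16.8e6 to 38.0e6 exon reads. Thbs1 itself was lower in KO cells, at 556 ± 101 CPM (exon reads per 1e6, scaled by TMM) in KO static cells and 2661 ± 547 CPM in WT static cells (SD, n = 3 each). The library numbered 3 of every group stood apart from the other two, with 9.15% to 11.3% of gene reads in introns in the number 3 libraries and 14.8% to 16.5% in those numbered 1 and 2. KO stretch library 3 also had the lowest share of reads across exon junctions, 16.4% against 28.1% to 29.8% in the other 11 libraries, and the lowest share of unique reads, 83.1% against 86.5% to 89.1%. Smooth muscle markers ranged widely in level. Tagln (transgelin) was at 2077 CPM in KO stretch and 2749 CPM in WT stretch cells. In static cells it was at 2235 CPM in KO and 2237 CPM in WT. Myocd (myocardin, a coactivator of smooth muscle genes) was at 13.7 ± 7.43 CPM in KO static and 2.96 ± 1.59 CPM in WT static cells (SD, n = 3 each). Its library 3 was the lowest in both static groups, at 5.15 CPM in KO and 1.41 CPM in WT. Under stretch Myocd had 20.2, 20.1 and 4.75 CPM in KO and 4.96, 4.25 and 1.43 CPM in WT libraries 1, 2 and 3. As groups these overlapped, and within each library number KO was higher. The log2 fold change of KO over WT under stretch was 2.08 ± 0.68 (SE). By edgeR's quasi-likelihood test with Benjamini-Hochberg adjustment its FDR was 0.0516, and 4.65e-07 with the library number as a block. Epcam, a defining surface protein of most epithelia, stayed near 0, with group means of 0.0912 CPM in KO stretch, 0.106 in KO static, 0.157 in WT stretch and 0.184 in WT static cells.

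Anxa8 and Upk1b were the members with the highest levels in KO cells and the widest gap to WT cells. Anxa8 (ENSRNOG00000060949, chromosome 16 from 10417185 to 10432393 in Rnor_6.0, 12 exons) encodes annexin A8, a calcium-dependent membrane-binding protein of skin and other stratified epithelium. Upk1b (ENSRNOG00000027380, chromosome 11 from 64522130 to 64553228, 8 exons) encodes uroplakin 1b, a tetraspanin of the bladder lining that mesothelium also expresses. RefSeq windows of 300 bases, from 250 before to 50 after the annotated start, are shown for these members because they carry the largest difference between the genotypes. They are from build GRCr8, at chr16:9403137-9403436 on the plus strand for Anxa8 and chr11:75459131-75459430 on the plus strand for Upk1b. Capitals mark GGAATG, the core letters of the TEAD motif, on either strand.
Anxa8: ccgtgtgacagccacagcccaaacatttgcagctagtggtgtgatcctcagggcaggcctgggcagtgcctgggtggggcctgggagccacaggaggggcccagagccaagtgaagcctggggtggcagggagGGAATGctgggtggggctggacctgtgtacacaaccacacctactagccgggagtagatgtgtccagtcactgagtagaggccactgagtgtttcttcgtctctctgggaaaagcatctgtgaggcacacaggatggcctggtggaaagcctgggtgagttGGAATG
Upk1b: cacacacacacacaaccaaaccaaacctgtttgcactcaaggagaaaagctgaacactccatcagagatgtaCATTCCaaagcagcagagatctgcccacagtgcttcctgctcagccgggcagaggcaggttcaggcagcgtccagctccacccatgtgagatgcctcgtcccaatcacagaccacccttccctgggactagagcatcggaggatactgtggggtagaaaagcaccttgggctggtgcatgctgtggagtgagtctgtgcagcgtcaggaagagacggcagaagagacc
Of 33469 such windows, 14.2% held GGAATG on at least 1 strand. The Anxa8 window held 2 copies and the Upk1b window 1. Neither held CACCTG (an E-box to which Snail and Zeb factors bind, in 18.8% of windows), TGANTCA with C or G at N (AP-1, 4.63%) or TATAAA (14.2%), on either strand. The windows of the other matched members, Upk3b, Krt8, Krt18 and Wt1, held no GGAATG. Krt8 and Wt1 held CACCTG, and Krt8 also held the AP-1 letters and TATAAA. These matches are letters in a window, and binding was not measured.

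Anxa8 had 64.0, 60.7 and 80.0 CPM in libraries 1, 2 and 3 of KO stretch cells and 81.3, 70.6 and 92.3 CPM in KO static cells. In WT it had 0.285, 0.643 and 1.08 CPM under stretch and 0.537, 0.360 and 1.25 CPM in static cells, from 6 to 31 reads per library. All 6 KO libraries lay far above all 6 WT libraries, and library 3 was the highest in each of the 4 groups. The log2 fold change of KO over WT was 6.63 ± 0.40 (SE) under stretch and 6.77 ± 0.41 in static cells, and 7.45 in static cells without library 3 of WT static. In bulk RNA, more cells with Anxa8 RNA and more Anxa8 RNA per cell cannot be told apart, nor can fewer cells and less RNA per cell.

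Upk1b reached 121, 120 and 140 CPM in KO stretch cells and 121, 126 and 137 CPM in KO static cells. WT stretch cells had 3.13, 1.46 and 2.41 CPM and WT static cells 1.69, 2.04 and 2.04 CPM. The lowest KO library was well above the highest WT library, and within each genotype the stretched and static libraries overlapped. Its log2 fold change of KO over WT was 5.77 ± 0.23 under stretch and 6.06 ± 0.23 in static cells. Nearly all reads of both genes mapped to 1 place, 12653 of 12657 exon reads for Anxa8 and 21456 of 21458 for Upk1b. Spliced reads made up like shares in both genotypes, crossing exon junctions in 34.8% of KO and 34.3% of WT exon reads of Anxa8, and in 24.1% of KO and 24.1% of WT exon reads of Upk1b. Reads in introns made up 3.04% of the Anxa8 gene reads in KO cells (393 of 12945) and 34.4% in WT cells (55 of 160). For Upk1b these shares were 7.56% in KO cells (1730 of 22877) and 43.1% in WT cells (236 of 547).

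Uroplakins other than Upk1b differed less or in the other direction. Upk3b (ENSRNOG00000023686, chromosome 12 from 23676152 to 23682381) encodes uroplakin 3b, a single-pass partner of uroplakin 1b that marks mesothelium in the mouse. It had 2.41, 2.35 and 3.40 CPM in KO stretch and 5.32, 4.95 and 6.12 CPM in KO static cells, against 1.67, 2.29 and 1.57 CPM in WT stretch and 3.22, 2.76 and 2.95 CPM in WT static cells. Within each condition all KO libraries were above all WT libraries, yet KO stretch and WT static cells overlapped. The log2 fold change of KO over WT was 0.57 ± 0.21 under stretch, or 0.26 with libraries 1 and 2 alone, and 0.87 ± 0.21 in static cells. Of its 1033 exon reads, 1027 were unique. Upk3bl1, a close relative of Upk3b, was the only 1 of 4 further uroplakin genes to pass the filter (Upk1a, Upk2 and Upk3a did not). It was lower in KO, at 0.999 ± 0.516 CPM in KO stretch and 4.0 ± 1.63 CPM in WT stretch cells and 1.17 ± 0.133 CPM in KO static and 2.96 ± 0.272 CPM in WT static cells (SD, n = 3 each). Its FDR by edgeR's quasi-likelihood test with Benjamini-Hochberg adjustment was 0.00257 under stretch and 0.0237 in static cells.

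Of 11 further annexin genes, 8 passed the filter and 1 rose in KO static cells, Anxa3 (log2 fold change 0.60 ± 0.13, FDR 0.00784), where 12.1% of all tested genes were higher. Under stretch edgeR called 0, with 3 at an unadjusted p under 0.05, and DESeq2 called 0 (Anxa3 had an edgeR FDR of 0.0544). The median of the 8 was 0.01 under stretch and 0.18 in static cells. Anxa2 and Anxa1, the annexins with the highest counts, had 2117 ± 343 and 2132 ± 83.1 CPM in KO static cells and 1769 ± 207 and 1832 ± 138 CPM in WT static cells. Their log2 fold changes, 0.26 ± 0.19 and 0.22 ± 0.12, did not pass the threshold without the library number as a block (FDR 0.414 and 0.253) and did with it (FDR 0.00897 and 0.0183). With the block, 4 of the 8 annexins were higher and 1 lower in KO static cells, where that fit called 19.8% of all genes higher and 17.8% lower. Under stretch it called 2 higher (Anxa3, FDR 0.000772, and Anxa7) and 1 lower (Anxa6), beside 19% of all genes higher and 18.3% lower.

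**Figure D1:**
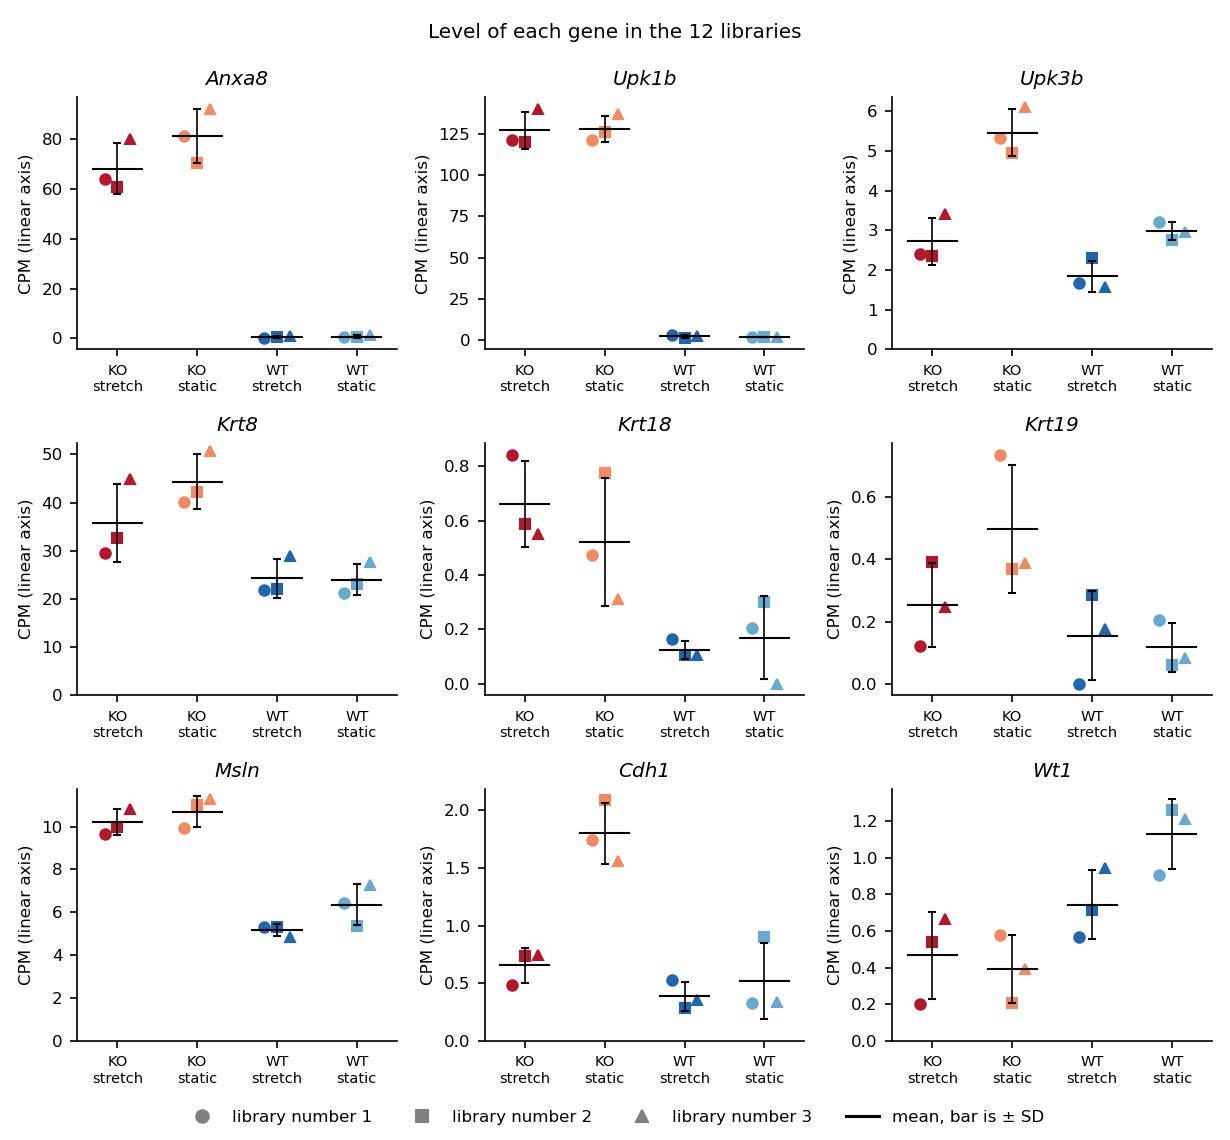
CPM of the 9 genes in each of the 12 libraries on linear axes, with circles, squares and triangles for the libraries numbered 1, 2 and 3, and the mean with its SD. Anxa8 and Upk1b are at 60.7 to 140 CPM in KO and under 4 CPM in WT libraries, Upk3b and Cdh1 are highest in KO static cells, and Wt1 is highest in WT static cells.

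Krt8 (ENSRNOG00000009779, chromosome 7 from 143596511 to 143603803) encodes keratin 8, the type II keratin of simple epithelium, and was well read in WT cells too. It had 29.6, 32.7 and 44.8 CPM in KO stretch and 40.1, 42.1 and 50.8 CPM in KO static cells. WT stretch cells had 21.9, 22.0 and 28.9 CPM and WT static cells 21.3, 23.0 and 27.6 CPM. The KO libraries were all above the WT libraries, by a small margin at 29.6 CPM in KO stretch library 1 against 28.9 CPM in WT stretch library 3, and library 3 was the highest in each of the 4 groups. KO over WT was 0.56 ± 0.18 under stretch and 0.89 ± 0.18 in static cells on the log2 scale, and 10279 of 10313 exon reads were unique.

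Krt18, whose product pairs with keratin 8, lay 25651 bases further along chromosome 7 (ENSRNOG00000047393, from 143629455 to 143633131) and was hardly read. It had 21, 12 and 20 reads in KO stretch, 9, 19 and 12 in KO static, 4, 3 and 3 in WT stretch and 5, 5 and 0 in WT static libraries. In CPM the KO stretch libraries had 0.843, 0.587 and 0.552 and the KO static libraries 0.474, 0.777 and 0.312, against 0.163, 0.107 and 0.105 in WT stretch and 0.206, 0.300 and 0 in WT static libraries. All 6 KO libraries were above all 6 WT libraries, and the count of 0 allows up to 0.125 CPM in that library, by counting error alone. Library 3 was the lowest of its group in all 4 groups, unlike Krt8. The log2 fold change was 2.37 ± 0.65 under stretch and 1.66 ± 0.67 in static cells, and the static value ranged from 1.03 without library 3 of WT static to 2.25 without library 2 of WT static. Unique reads were 92 of 93 exon reads in KO cells and 17 of 20 in WT cells, 13 of all 113 exon reads crossed an exon junction, and 65.4% of the gene's reads lay in introns.

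Krt19 (ENSRNOG00000014233, chromosome 10 from 88055841 to 88060561), the type I keratin of ducts and mesothelium, had the poorest assignment. Its counts were 3, 8 and 9 in KO stretch, 14, 9 and 15 in KO static, 0, 8 and 5 in WT stretch and 5, 1 and 2 in WT static libraries. KO static libraries were above WT static libraries, the stretched libraries overlapped, and the 0 in WT stretch library 1 allows up to 0.122 CPM. Only 26 of its 79 exon reads were unique, or 32.9%, with 0% in the lowest library and 66.7% in the highest, where the median tested gene had 99.7% and 10% of tested genes had under 60.0%. The whole Krt19 interval lies inside the interval that the table gives for Krt14, from 88055823 to 88122233, and the other 8 members overlap no listed gene. Krt19 reads are therefore uncertain.

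Krt14 itself, a type I keratin of basal epithelial cells, was the 1 further keratin called in both conditions. It had 19.9, 20.5 and 29.5 CPM in KO stretch and 8.22, 7.98 and 11.9 CPM in KO static cells, and at most 0.732 CPM in any WT library. All KO libraries were above all WT libraries, by a log2 fold change of 5.81 ± 0.45 under stretch (FDR 3.26e-06) and 5.91 ± 0.53 in static cells (FDR 9.60e-06). Its unique share was also low, at 27.0%, and its interval overlaps those of Krt19 and Krt17. In a fit to unique reads alone the values were 5.95 ± 0.58 under stretch (FDR 1.38e-05) and 6.53 ± 0.74 in static cells (FDR 4.71e-05). Its assignment among neighbouring keratins is uncertain.

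Of 16 further keratins in the table, 9 passed the filter. In KO against WT, 4 were higher and 1 lower under stretch, where 11.9% of all tested genes were higher and 8.73% lower. Of the 4, Krt17 had a unique-read share of 38.7%. In a fit to unique reads alone it was at 2.00 ± 0.88 under stretch and was not called (FDR 0.144), so its rise is uncertain. In static cells, 1 was higher and 0 lower, where 12.1% of all genes were higher and 8.66% lower, and 3 of the 9 had an unadjusted p under 0.05 and 3 were called by DESeq2. With the block, 2 were higher (Krt14 and Krt17) and 1 lower (Krt15) in static cells. Of all genes that fit called 19.8% higher and 17.8% lower. On unique reads, without the block, Krt17 was at 1.04 ± 0.87 in static cells (FDR 0.493). The 9 had a median log2 fold change of 0.42 under stretch and 0.26 in static cells. Krt5, the type II partner of keratin 14, was at 0.558 CPM in KO stretch and 0.354 CPM in WT stretch cells and was not called (FDR 0.230). Per length, the 7 type II keratins added up to 18 ± 4.64 RPKM (exon reads per kilobase and 1e6 reads) in KO stretch, 22.3 ± 3.9 in KO static, 13 ± 2.59 in WT stretch and 13.3 ± 1.92 RPKM in WT static cells, mostly from Krt8. The 11 type I keratins added up to 16.5 ± 3.57, 11.7 ± 2.35, 9.56 ± 2.14 and 9.02 ± 1.00 RPKM in the same order (SD, n = 3). In KO stretch cells Krt14 held 8.35 RPKM and Krt10 3.70 RPKM of this sum, and in WT static cells Krt15 held 4.68 and Krt10 3.63 RPKM, while Krt18 and Krt19 stayed under 0.5 RPKM in every group mean.

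**Figure D2:**
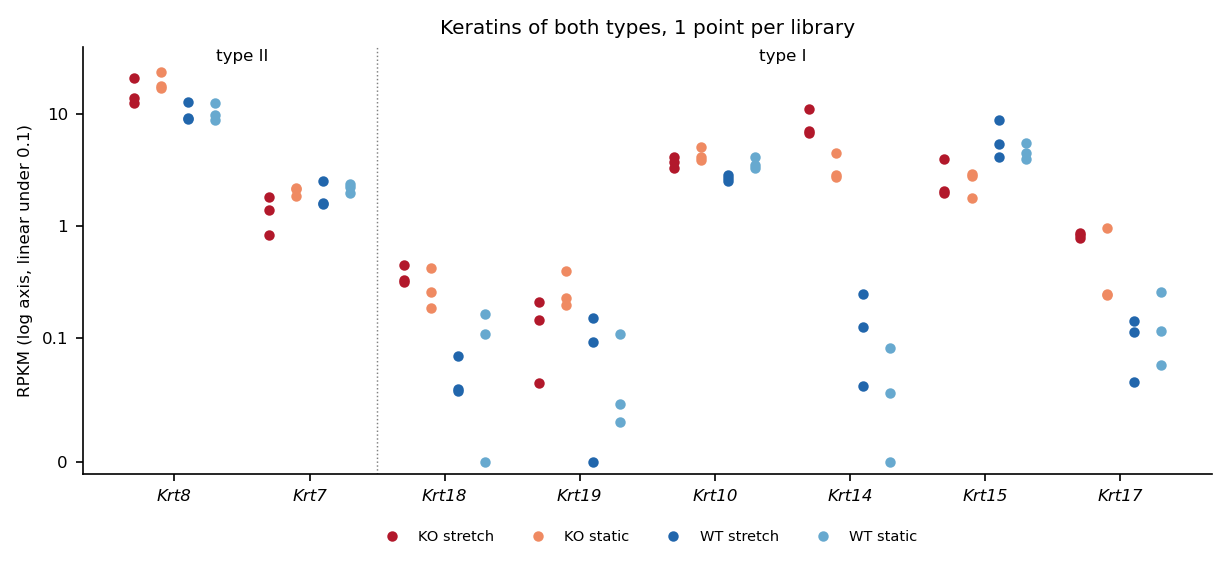
RPKM of 8 keratins in each library, on a log axis that is linear under 0.1, with 1 point per library and KO groups left of WT groups. Krt8 lies near 10 RPKM or above in all groups, its type I partners Krt18 and Krt19 lie under 0.5 RPKM, and Krt14 averages 8.35 and 3.35 RPKM in KO stretch and KO static cells against 0.144 and 0.0490 RPKM in WT stretch and WT static cells, with a unique-read share of 27.0%.

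Msln (ENSRNOG00000019445, chromosome 10 from 15119663 to 15125408) encodes mesothelin, a surface glycoprotein that is anchored by a lipid and marks mesothelium. It had 9.67, 9.99 and 10.8 CPM in KO stretch and 9.91, 11 and 11.3 CPM in KO static cells, against 5.33, 5.29 and 4.83 CPM in WT stretch and 6.44, 5.35 and 7.28 CPM in WT static cells. The genotypes did not overlap. The log2 fold change of KO over WT was 0.98 ± 0.13 under stretch and 0.75 ± 0.13 in static cells, and 2556 of 2564 exon reads were unique.

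Cdh1 (ENSRNOG00000020151, chromosome 19 from 38768467 to 38838395) encodes E-cadherin, the adhesion protein of epithelial junctions. KO stretch cells had 0.482, 0.734 and 0.745 CPM, KO static cells 1.74, 2.09 and 1.56 CPM, WT stretch cells 0.529, 0.286 and 0.350 CPM and WT static cells 0.330, 0.901 and 0.333 CPM. Only KO static cells stood clear of the rest, and the other 3 groups overlapped. The log2 fold change was 0.76 ± 0.41 under stretch and 1.83 ± 0.39 in static cells, and 2.42 in static cells without library 2 of WT static. The gene had 260 exon reads over 12 libraries, 245 of them unique, and 80.6% of all reads in the gene lay in introns, against a median of 20.4% over the tested genes.

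Wt1 (ENSRNOG00000013074, chromosome 3 from 95133713 to 95180564), a zinc-finger factor that marks mesothelium and epicardium, ran the other way. It had 0.201, 0.538 and 0.663 CPM in KO stretch and 0.580, 0.204 and 0.390 CPM in KO static cells, against 0.569, 0.714 and 0.944 CPM in WT stretch and 0.908, 1.26 and 1.21 CPM in WT static cells. KO static libraries were all below WT static libraries, and the stretched groups overlapped. KO over WT was -0.64 ± 0.43 under stretch and -1.53 ± 0.44 in static cells on the log2 scale. Counts were 5 to 29 per library, 199 of 204 exon reads were unique, and 65.7% of the gene's reads lay in introns.

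**Figure D3:**
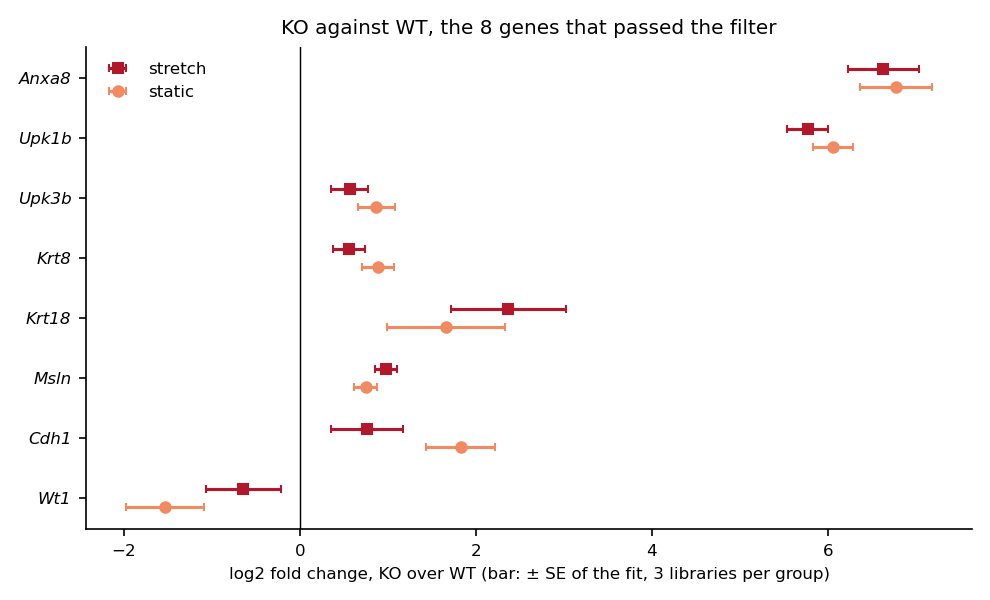
Log2 fold change of KO over WT with its SE for the 8 genes that passed the filter, squares for stretch and circles for static cells. Anxa8 and Upk1b stand at 5.77 to 6.77, 5 genes lie between 0.56 and 2.37, and Wt1 lies below 0 in both conditions.

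In all, 5 of the 9 members (Anxa8, Upk1b, Krt8, Krt18 and Msln) had all 6 KO libraries above all 6 WT libraries, as did 11.2% of all tested genes, and since the members were chosen on this difference nothing is read from that share. Ordered by RPKM, KO static cells had Upk1b at 52.4 ± 5.99, Anxa8 at 32.1 ± 5.89 and Krt8 at 19.5 ± 3.60, then Msln at 3.72 ± 0.408 and Upk3b at 3.49 ± 0.569. Cdh1 (0.308), Krt18 (0.284), Krt19 (0.271) and Wt1 (0.113) ended the order (mean RPKM). Msln and Upk3b did not differ beyond their spread, nor did Cdh1, Krt18 and Krt19. In WT static cells Krt8 came first at 10.4 ± 1.87 RPKM, followed by Msln at 2.18 ± 0.399, Upk3b at 1.87 ± 0.130, Upk1b at 0.777 ± 0.106, Wt1 at 0.321 ± 0.0626 and Anxa8 at 0.281 ± 0.196 RPKM, with Krt18, Cdh1 and Krt19 under 0.1 RPKM (SD, n = 3 each). The neighbouring pairs Msln and Upk3b, and Wt1 and Anxa8, did not differ beyond their spread. Among all genes with an exon length, Upk1b was at the 94.8th percentile of RPKM in KO static cells and at the 48.4th in WT static cells, and Anxa8 was at the 91.5th and the 42.1st.

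Stretch was compared with static cells within each genotype, which asks whether mechanical load moves these genes and was not used to choose them. By edgeR's quasi-likelihood test with Benjamini-Hochberg adjustment, 0 of the 8 tested members were called in KO cells, where 0.796% of all genes were called, and 0 in WT cells, where 0.742% were called. Unadjusted p-values under 0.05 were met by Upk3b and Cdh1 in KO cells and by Upk3b and Msln in WT cells. At that level were 1153 of the 14825 tested genes in KO cells and 1403 in WT cells. DESeq2 called 2 members in KO cells (Upk3b and Cdh1), beside 2.02% of all genes, and 0 in WT cells, beside 2.72%. With the library number as a block, 3 members fell in KO cells (Upk3b, Krt8 and Cdh1), where that fit called 4.42% of all genes, and 0 were called in WT cells, where it called 6.37%. With libraries 1 and 2 alone, Upk3b and Krt8 were called in KO cells, beside 2.94% of all genes. Without KO stretch library 3 alone, 0 members were called, and the log2 fold change in KO cells was -1.20 for Upk3b (FDR 0.0505) and -0.51 for Krt8 (FDR 0.356).

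Upk3b was lower under stretch in both genotypes, with no overlap between stretched and static libraries in KO cells or in WT cells. Its log2 fold change was -1.0 ± 0.21 in KO cells (FDR 0.0580 without and 0.0216 with the block) and -0.69 ± 0.21 in WT cells (FDR 0.242 without and 0.0992 with the block). In the authors' deposited table its stretched KO cells had a fold change of -1.99, where the minus sign marks the reciprocal, with an FDR of 0.0531. Cdh1 did not overlap in KO cells, at 0.654 ± 0.149 CPM under stretch and 1.80 ± 0.267 CPM in static cells, a log2 fold change of -1.44 ± 0.37 (FDR 0.157 without and 0.0464 with the block). In WT cells it overlapped, with -0.37 ± 0.43 (FDR 0.925). Krt8 was lower under stretch in KO cells within each library number, and overlapped as a group, with -0.31 ± 0.18 without the block (FDR 0.811) and -0.32 ± 0.07 with it (FDR 0.0181). In WT cells Krt8 was at 0.02 ± 0.18 (FDR 1.00). Msln was at -0.08 ± 0.13 in KO cells (FDR 1.00) and -0.31 ± 0.13 in WT cells (FDR 0.479), where its stretched libraries did lie below its static ones.

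The 2 members highest in KO cells were not moved past the threshold. Anxa8 had a log2 fold change of -0.25 ± 0.29 in KO cells, with a 95% interval from -0.92 to 0.42, and Upk1b one of -0.01 ± 0.18, with an interval from -0.43 to 0.40. Krt18 was at 0.36 ± 0.54 and Wt1 at 0.30 ± 0.46 in KO cells, and at -0.34 ± 0.80 and -0.59 ± 0.41 in WT cells. Their intervals in KO cells, from -0.89 to 1.61 for Krt18 and from -0.75 to 1.36 for Wt1, were wide at these low counts and included a log2 fold change of 1.

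**Figure D4:**
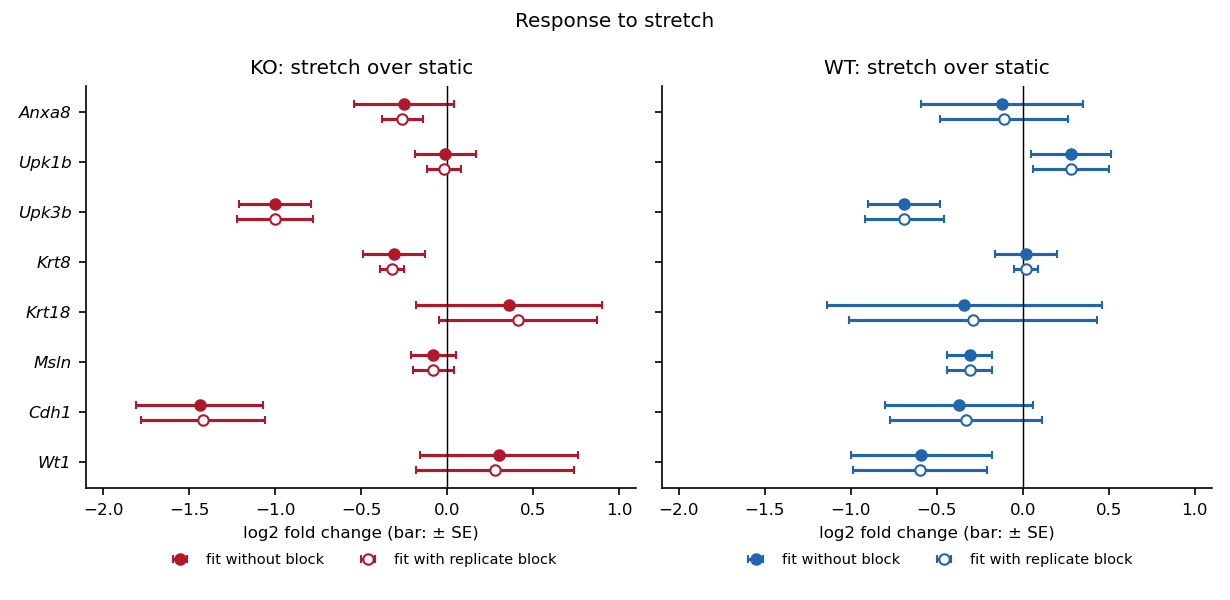
Log2 fold change of stretch over static with its SE for the 8 tested genes, KO cells on the left and WT cells on the right, filled points without and open points with the library number as a block. Upk3b and Cdh1 lie at -1.0 and -1.44 in KO cells, and the block shortens the bar of Krt8 from 0.18 to 0.07.

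Whether stretch acted differently in KO and WT cells was tested as the interaction, the stretch effect in KO minus that in WT. It was called for 0 of the 8 members and for 0% of all genes by edgeR, with 0 members and 336 genes at an unadjusted p under 0.05, and DESeq2 called 0 members and 7 genes (0.0321%). Cdh1 had the largest value among members, -1.07 ± 0.57 (FDR 1.00), and Upk3b was at -0.31 ± 0.30 (FDR 1.00). The lower Cdh1 level of stretched KO cells was thus not shown to be a response of KO cells in particular.

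Across the 12 libraries, several members followed the genotype so closely that many genes matched them. Likeness was measured as Pearson's r of log2 CPM with 9887 named genes of sufficient level, and all points share the genotype difference that chose the members. Spon2 was the gene most like Anxa8 (r = 0.997, with 379 genes above 0.95), and it averaged 33.3 CPM in KO stretch, 35.3 in KO static, 5.27 in WT stretch and 5.09 CPM in WT static cells. Tlr2 was most like Upk1b (r = 0.997, 390 genes above 0.95), at 146, 134, 7.05 and 5.50 CPM in the same groups. Haus4 was most like Krt8 (r = 0.985) and Cpt1c most like Msln (r = 0.987), with 55 and 150 genes above 0.95. For Upk3b this was Bhlhe41 (r = 0.963), which averaged 3.86 CPM in KO stretch, 5.56 in KO static, 3.08 in WT stretch and 4.23 CPM in WT static cells. Krt18, Cdh1 and Wt1 had no gene above 0.95, and their nearest were Cep164 (0.942), Gnl2 (0.930) and Dusp14 (0.893). After the group means were taken out, Anxa8 and Upk1b, which had r = 0.98 with each other over the 12 libraries, had r = -0.18.

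Further genes of mesothelium, epithelium and mesenchyme were read from 13 lists, of which 122 genes passed the filter, 4 of them in the 1 list whose values are not reported here. In KO against WT, 23 of the 122 were higher and 24 lower under stretch, and 24 were higher and 21 lower in static cells. The shares of all tested genes given above for the keratins apply to these counts, and to those of each list within 1 condition. They are for the fit without the block. With the block, 19% of all genes were higher and 18.3% lower under stretch, and 19.8% higher and 17.8% lower in static cells. The share of all genes called in both conditions was not computed, so nothing is read from counts of genes called in both. Shares of all genes in KO against WT at an unadjusted p under 0.05, or called by DESeq2, are not given here. Nothing is read from such counts in any list, those of the annexins and keratins included.

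Of 17 further mesothelial and epicardial genes in the table, 11 passed the filter. In KO cells 4 were higher and 3 lower under stretch, and 4 were higher and 2 lower in static cells. Of these, 4 rose and 2 fell in both conditions. Tbx18 passed the threshold under stretch, at -0.59 ± 0.16 (FDR 0.0208), and not in static cells, at -0.46 ± 0.16 (FDR 0.0657 without and 9.94e-05 with the block). Lrrn4, a leucine-rich repeat protein of mesothelial cells, had 7.50, 7.73 and 5.30 CPM in KO stretch and 6.27, 6.67 and 5.54 CPM in KO static cells, against 0.529, 0.322 and 0.280 CPM in WT stretch and 0.661, 0.781 and 0.874 CPM in WT static cells. Its groups were far apart, with a log2 fold change of 4.18 ± 0.27 under stretch (FDR 7.32e-07) and 2.99 ± 0.25 in static cells (FDR 5.81e-06). Rspo1 (R-spondin 1, a secreted enhancer of Wnt signalling) rose to 269 ± 34.7 CPM in KO static cells, against 120 ± 9.62 CPM in WT static cells. Nkain4 rose by 1.56 ± 0.19 under stretch and 1.73 ± 0.19 in static cells and Cldn15, a claudin of tight junctions, by 0.88 ± 0.22 and 1.64 ± 0.22. Pdpn (podoplanin, a surface glycoprotein of mesothelium) fell, at 0.114 ± 0.0380 CPM in KO static and 0.993 ± 0.185 CPM in WT static cells. Gata6, a transcription factor of the epicardium and of vascular smooth muscle, also fell, at 57.0 ± 5.32 CPM in KO static and 93.2 ± 6.45 CPM in WT static cells. The median log2 fold change of the 11 genes was 0.17 under stretch and 0.37 in static cells, beside a median of all genes within 0.01 of 0. Calb2 (calretinin), a marker used for mesothelium, was under the filter with at most 4 reads in a library, and Muc16 was not analysed here.

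Of 29 epithelial junction genes in the table, 21 passed the filter. In KO cells 6 were higher and 1 lower under stretch, 7 were higher and 2 lower in static cells, and 5 were higher and 1 lower in both. Their median log2 fold change was 0.13 under stretch and 0.37 in static cells. Cdh3, which encodes P-cadherin, had 47.7, 44.0 and 44.0 CPM in KO stretch and 51.0, 59.3 and 66.0 CPM in KO static cells, and 3.82, 3.29 and 2.55 CPM in WT stretch and 6.48, 4.81 and 5.03 CPM in WT static cells. Its log2 fold change was 3.81 ± 0.17 under stretch (FDR 6.52e-08) and 3.43 ± 0.17 in static cells (FDR 1.31e-07), without overlap. Ppl (periplakin), Dsp (desmoplakin) and Pkp1 (plakophilin 1), which link keratin filaments to desmosomes and the cell cortex, rose by 1.93 ± 0.23, 1.94 ± 0.31 and 0.90 ± 0.10 under stretch and by 2.34 ± 0.24, 1.88 ± 0.31 and 0.83 ± 0.10 in static cells. Ctnna1 (alpha-catenin) fell slightly, by 0.31 ± 0.07 under stretch. Pkp2 was not analysed here.

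Cadherins of mesenchyme moved in the other direction from Cdh3. Cdh2, which encodes N-cadherin, had 5.18 ± 0.449 CPM in KO stretch and 39.1 ± 3.35 CPM in WT stretch cells, and 5.36 ± 0.498 CPM in KO static and 40.3 ± 2.38 CPM in WT static cells (SD, n = 3 each). Its log2 fold change was -2.92 ± 0.11 under stretch (FDR 2.52e-08) and -2.90 ± 0.11 in static cells (FDR 2.81e-08). Cdh11 (OB-cadherin) fell to 181 ± 23.5 CPM in KO static cells, against 418 ± 40.6 CPM in WT static cells. Per length, KO static cells had Cdh11 at 26.3, Cdh3 at 12.2, Cdh2 at 0.936 and Cdh1 at 0.308 RPKM, and WT static cells had Cdh11 at 60.2, Cdh2 at 6.93, Cdh3 at 1.1 and Cdh1 at 0.0882 RPKM. In this list of 11 mesenchymal adhesion and filament genes, 1 rose and 6 fell in each condition, the same genes in both. Their median log2 fold change was -0.79 under stretch and -0.76 in static cells. Tgfbi and Nes (nestin) fell by 2.35 ± 0.27 and 1.54 ± 0.19 under stretch, and Itga5, the fibronectin-binding integrin subunit, rose by 0.56 ± 0.12. Vim (vimentin) was at a log2 fold change of 0.07 ± 0.15 in static cells (FDR 0.823 without and 0.405 with the block). Under stretch it was at -0.17 ± 0.15 (FDR 0.518 without and 0.034 with the block). The fit with the block called 3 of the 11 higher and 6 lower in static cells, beside 19.8% and 17.8% of all genes. Under stretch that fit called 2 higher and 7 lower, beside 19% and 18.3%.

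A list of transcription factors, of repressors of Cdh1 and other factors of mesenchyme, held 11 tested genes. In each condition 1 rose and 2 fell. The riser was Prrx1, a factor of mesenchyme, and those that fell were Snai2 and Tcf3. The median log2 fold change of the 11 was -0.24 under stretch and -0.16 in static cells. Snai2 (Slug) had 40.7 ± 1.22 CPM in KO stretch and 67.9 ± 5.31 CPM in WT stretch cells, and 34.9 ± 5.62 CPM in KO static and 63.2 ± 3.50 CPM in WT static cells, a log2 fold change of -0.74 ± 0.12 (FDR 0.000690) and -0.86 ± 0.12 (FDR 0.000254). Tcf3 (E2A) fell by 0.45 ± 0.10 and 0.44 ± 0.10. Prrx1, a homeobox factor of mesenchyme, rose to 196 ± 27.2 CPM in KO static cells, against 53.4 ± 9.73 CPM in WT static cells. Snai1, Zeb1, Zeb2 and Twist1 were not called in either condition without the block. With it, Snai1 was lower in both (FDR 0.0148 under stretch and 0.00927 in static cells), Zeb2 lower under stretch (FDR 0.00846) and Twist1 higher in static cells (FDR 0.0207). That fit called 1 of the 11 higher and 6 lower under stretch, and 2 higher and 5 lower in static cells. Of all genes it called 19% higher and 18.3% lower under stretch, and 19.8% higher and 17.8% lower in static cells.

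Among 15 tested epithelial regulators and surface proteases, 2 were higher and 1 lower in KO under stretch, 2 were higher and 2 lower in static cells, and 1 of each direction was called in both. Spint2, which inhibits the surface serine proteases of epithelium, rose to 117 ± 18.2 CPM in KO stretch cells, against 16 ± 1.14 CPM in WT stretch cells, and to 132 ± 14.0 CPM in KO static cells, against 20.2 ± 1.97 CPM in WT static cells. The FDR was 9.08e-08 under stretch and 1.45e-07 in static cells. Cd24, a surface glycoprotein with a unique-read share of 58.9%, fell by 1.60 ± 0.28 under stretch and 1.70 ± 0.29 in static cells and is uncertain for its shared reads. Called in 1 condition alone were Ehf and Muc1 in static cells, at 1.29 ± 0.39 (FDR 0.0345) and -0.92 ± 0.22 (FDR 0.00977). Klf5 was called under stretch alone, at 0.80 ± 0.25 (FDR 0.0408). Grhl2 and Esrp1, regulators of epithelial identity, were not called in either condition.

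**Figure D5:**
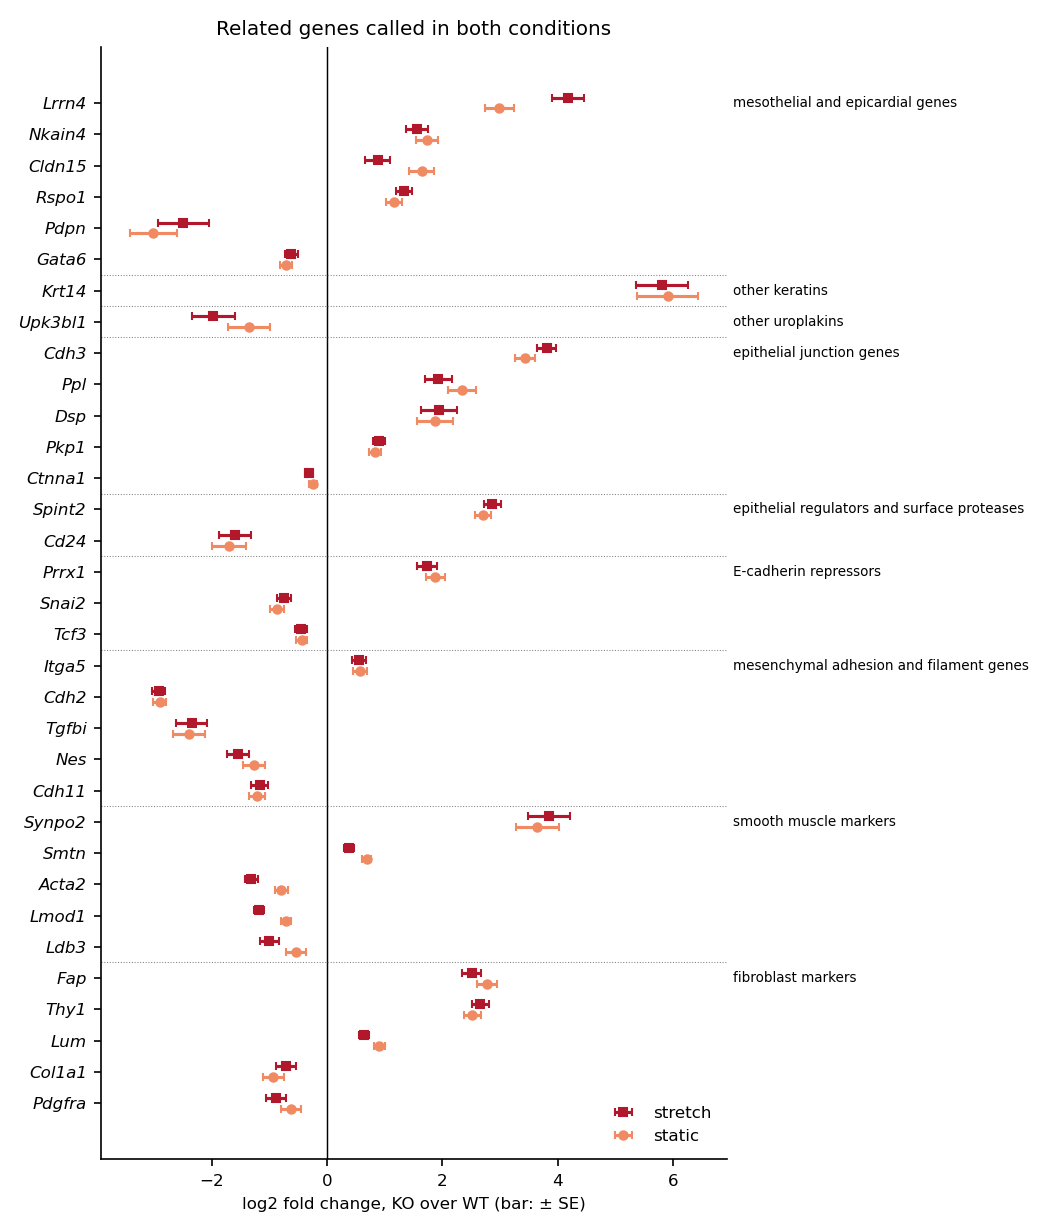
Log2 fold change of KO over WT with its SE for the listed genes called in both conditions, up to 4 per direction and list, squares for stretch and circles for static cells. Cdh3, Spint2, Lrrn4 and Krt14 lie on the higher side, Cdh2, Pdpn and Tgfbi on the lower, and the smooth muscle and fibroblast lists hold genes on both sides.

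Markers of smooth muscle and fibroblasts did not move as blocks. Of 13 smooth muscle markers, 2 were higher and 6 lower in KO cells under stretch, and 4 were higher and 3 lower in static cells. With the block, 6 were higher and 5 lower in static cells, where that fit called 19.8% of all genes higher and 17.8% lower. Under stretch it called 3 higher and 7 lower, beside 19% of all genes higher and 18.3% lower. Tagln was 1 of those 7 (FDR 0.000608, and 0.135 without the block). Acta2 (smooth muscle actin) had 915 ± 110 CPM in KO stretch and 2268 ± 138 CPM in WT stretch cells, and 1255 ± 114 CPM in KO static and 2168 ± 180 CPM in WT static cells. Lmod1 and Ldb3 fell by 1.18 ± 0.08 and 1.00 ± 0.17 under stretch, while Synpo2 rose by 3.85 ± 0.37 and Smtn by 0.38 ± 0.08 under stretch. The median of the 13 was -0.40 under stretch and 0.00 in static cells. Of 8 fibroblast markers, 3 were higher and 3 lower in KO cells under stretch, and 3 were higher and 2 lower in static cells. Fap, Thy1 and Lum were higher in both conditions, and Col1a1 and Pdgfra lower in both. Dpt was lower under stretch, at -2.69 ± 0.63 (FDR 0.00938). In static cells it was at -1.92 ± 0.65 (FDR 0.0594 without and 0.0425 with the block). The median of the 8 was 0.58 under stretch and 0.27 in static cells. Thy1 had 202 ± 17.2 CPM in KO static and 35.3 ± 3.14 CPM in WT static cells. Summed fibroblast markers, mostly Col1a1, held 17550 to 22812 CPM in KO stretch, 19801 to 20499 in KO static, 24789 to 38767 in WT stretch and 31934 to 43293 CPM in WT static libraries.

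Markers of endothelium were read at a low level, and those of leukocytes at a lower one. The 7 endothelial markers in the table summed to 5.22 to 9.11 CPM in KO stretch, 6.12 to 7.85 in KO static, 8.85 to 10.1 in WT stretch and 11.4 to 15.4 CPM in WT static libraries, mostly from Tek (of 6 tested genes 1, Tek, was lower in KO static cells, FDR 0.00387, and 0 were called under stretch, with 2 at an unadjusted p under 0.05 and 1 called by DESeq2), and Erg was at most 2.64 CPM. With the block, Erg was also lower in KO cells, in both conditions (FDR 0.00841 under stretch and 0.0221 in static cells). The 8 leukocyte markers summed to 2.90 to 3.92, 2.94 to 3.8, 2.34 to 3.86 and 2.46 to 3.06 CPM in the same order. In the leukocyte list edgeR, without and with the block, and DESeq2 each called 0 of 4 tested genes in KO against WT, with 1 gene at an unadjusted p under 0.05 under stretch and 0 in static cells, and no marker of the endothelial and leukocyte lists was at 0 in all 12 libraries. What part the smooth muscle and fibroblast markers, or the library numbers, have in the members' values was not tested.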

How the data were processed

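Messenger RNA of 12 libraries was measured. Per the labels, TRIZOL was used for extraction, poly(A) RNA was taken from 500 ng, and strand-marked libraries were read from both ends for 36 bases. Per the submitters' processing notes, CLC Genomics Workbench 12.0 and build Rnor_6.0 were used. Annotation release and the strand setting of counting are not given in the sources used here. The deposited counts are whole numbers of exon reads per gene. The total exon count includes multi-mapped reads and the unique count does not, per the file headers. The deposited RPKM values are the authors' exon reads per kilobase and 1e6 reads. The authors' fold change is a signed score in the deposited table, and the authors' false discovery rate (FDR) is a column of its own there. Starts in the table count from 0 and were raised by 1.

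The test on total exon counts was edgeR's quasi-likelihood F test (edgeR 4.0.16, R 4.3.3) after filterByExpr (minimum count 10) and TMM scaling, with 1 mean per group over 12 libraries and 8 residual degrees of freedom. Its p-values were adjusted by Benjamini-Hochberg over the 14825 genes that passed the filter (FDR, threshold 0.05). Scripts were tested on simulated data. Alternatives were DESeq2 1.42.0, RLE and upper-quartile scaling, no filter, unique reads, the library number as a block, libraries 1 and 2 alone, only the groups compared, RPKM for levels, and each library left out. A count of 0 is given with the level that 3 counts would have. Intervals of 95% use Student's t quantile with the residual degrees of freedom.

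Only the libraries numbered 3 stood clear as alike across groups. After removal of group means, same-numbered libraries of different groups correlated across genes at r = 0.18 to 0.26 (number 1), 0.14 to 0.28 (number 2) and 0.43 to 0.58 (number 3), and differently numbered ones at -0.43 to 0.31. The values for numbers 1 and 2 lay within the range of differently numbered libraries, so a pairing by these numbers is not shown. Nothing in the labels says what a number marks.

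The 9 members and the 13 lists were chosen with earlier results of these data known. The values of 1 list are not reported here. Named from each list are up to 4 genes per direction with the largest mean change among those called in KO against WT in both conditions, or otherwise the 2 of highest level. The gene most like a member is the named gene with a mean log2 CPM of at least 2 and the highest r of log2 CPM (prior count 3). Anxa3, Anxa6, Anxa7, Erg, Myocd, Tbx18, Krt5, Krt10, Krt15, Krt17, Calb2, Epcam, Tagln, Vim, Dpt, Ehf, Klf5, Muc1 and uncalled repressors or regulators were named after their values were seen. RefSeq windows of build GRCr8 matched 6 of the 9 members.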

Additional observations from a re-analysis of the deposited data

How the results depend on the processing

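No member was called for stretch in WT cells or for the interaction under any alternative, and none in KO cells under RLE or upper-quartile scaling, no filter, unique reads, only the groups compared or any library left out (0 to 0). In KO cells the count of 0 called members became 2 with DESeq2 (Upk3b and Cdh1), 3 with the replicate block (Upk3b, Krt8 and Cdh1) and 2 with libraries 1 and 2 alone (Upk3b and Krt8). The cause was not tested. The block changed the call of no other member. The listed genes called in KO against WT were 45 in static cells and 47 under stretch, and 66 and 63 with the block, and 39 to 52 and 42 to 51 as each library was left out, all within 1.5 times. The block also called more of all genes, 19.8% higher and 17.8% lower in static cells and 19% higher and 18.3% lower under stretch. Of 319 KO-over-WT values of members under the alternatives, 0 changed sign and 5 moved by more than the replicate SD. Of 470 stretch and interaction values, 10 moved so, 7 gained a call and 0 lost one, and 21 near 0 changed sign without a call. RPKM in place of CPM changed the direction of no member. Other scalings moved the median of all genes by at most 0.03 (log2). Depth limits Krt18, Krt19, Cdh1 and Wt1, with 0 to 60 reads per library.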
